A study of Rattus norvegicus with 10 samples.

Results

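A block of rat chromosome 17 was examined, made of all regions between positions 71000000 and 74000000 of the RN4 assembly in a matrix of captured methylated DNA. It held 788 of the 716492 regions of the matrix. The limits of the block were chosen by earlier results on the same tag counts, as a place where rats fell into shared patterns. The shared variation and the group differences in the block are therefore a description of these 10 rats, and p-values are given on that footing. DNA came from the left dorsal hippocampus, from tissue containing the CA3 field and dentate gyrus, of adult male Sprague-Dawley rats, which are an outbred stock. Tissue was taken 3 months after lateral fluid-percussion injury, a model of traumatic brain injury (TBI), or after a sham operation with anesthesia and craniectomy but no pressure pulse. The groups were 5 sham and 5 TBI rats, each with its own library, named sham rat 1 to 5 and TBI rat 1 to 5, and no rats without surgery.

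In mammals, methyl groups are placed mainly on cytosines of CpG sites and are copied when DNA is replicated. Methyl-binding proteins attach to such sites, and the capture used here recovers DNA fragments that carry them. The number of read tags in a region rises with the methylated CpG sites it holds, so that a region without methylation is expected to give few or no tags. Neighbouring CpG sites often share their methylation state. In tissue, a lower tag count in each cell and a smaller share of cells with methylated DNA cannot be told apart. Levels are given as CPM (tags relative to library size, scaled by TMM) unless raw tags are named.

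The 788 regions were between 198 and 2920 bp long, with a median of 519.5 bp, and covered 486 kb in all. Regions were unevenly spaced, and the widest stretch without any lay between 71627304 and 71674011 (46.7 kb). Of the 788 regions, 333 passed the filter on low tag sums (117 tags over 10 rats) and 329 passed the same filter without sham rat 5 (100 tags over 9 rats). The other regions were read by their raw tags, and 2 regions held no tag. Sequence and gene annotation of the RN4 assembly were not used here, and positions are those of the matrix. At the lower end of the block, the first region inside (chr17:71004325-71004780) held 5 tags in sham rat 5 and 14 to 26 in the other rats, and the nearest one outside (chr17:70999425-70999747) held 13 tags in sham rat 5 and 0 or 1 in the other 9. At the upper end, the last region inside (chr17:73997483-73997966) held between 2 and 12 tags per rat and the next one outside (chr17:74017434-74017897) between 3 and 15.

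Libraries held between 13597924 and 21672940 tags. Sham rat 5 had 18584214 tags, within this range, but its library stood apart from the other 9. Over tested regions the mean r of its log2 CPM with another rat was 0.688, compared with 0.815 to 0.914 for pairs of the other rats. Sham rat 5 had no tag in 0.487% of all regions of the matrix, compared with 6.57% to 16.3% in the other rats. Each comparison is therefore given with and without sham rat 5.

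Rats differed most from each other in a short interval of the block. Regions were compared by their profile over the 9 rats other than sham rat 5. Of the 14 regions of the block with the highest spread between these rats for their abundance, 12 fell into a single cluster of similar profiles. The first of the 12 was chr17:72209068-72210463 and the last chr17:72501621-72502421, a span of 293.4 kb. The mean profile of the 12 regions was high in sham rat 3 (1.34 log2 units above the mean of the 9 rats) and sham rat 2 (1.26), and above the mean in sham rat 4 (0.46) and sham rat 1 (0.44). TBI rat 4 was near the mean (0.11). TBI rats 1, 2, 3 and 5 were low, at -0.99, -0.80, -0.87 and -0.94. The pattern thus separated sham from TBI rats for the most part, but it also divided the sham rats into a higher and an intermediate pair and set TBI rat 4 apart from the other TBI rats.

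This profile was then compared with each region of at least 50 tags over the 9 rats. A pattern region is one with r of 0.8 or more. Of 480 such regions of the block, 24 were pattern regions (5%), compared with 0.309% over the 492140 regions of the whole matrix. The 12 clustered regions set the profile, so that the count of 24 is not independent of them. In the interval between the outermost clustered regions, 20 of 34 regions with enough tags were pattern regions, and in the rest of the block 4 of 446. Of these 20, 7 lay below the filter on low tag sums and 13 passed it. The limit of 0.8 fell between chr17:72380170-72381168, with r = 0.81, and chr17:72515727-72516350, just beyond the end of the interval, with r = 0.79.

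**Figure D1:**
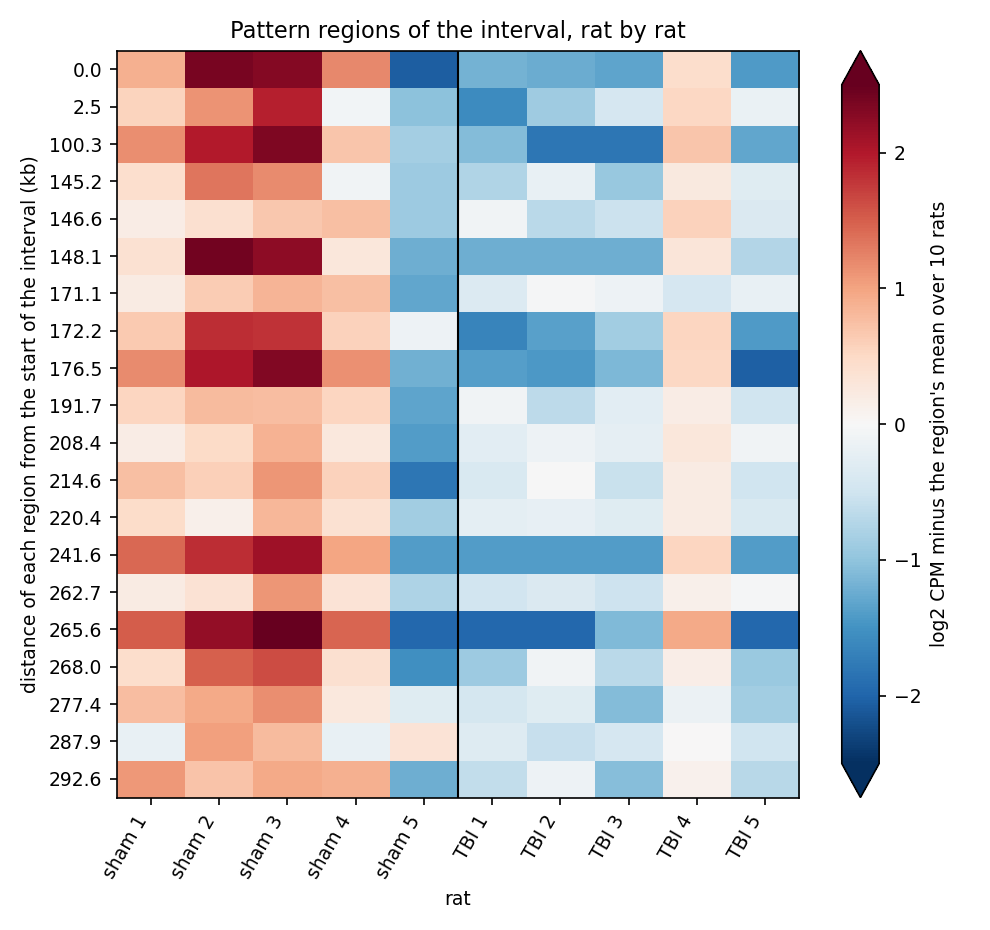
Log2 CPM of the 20 pattern regions of the interval (rows, in order of position, labelled by their distance in kb from the start of the interval) in each of the 10 rats (columns), with the mean of each region over the rats removed. Scaling here is by all tags of each library and TMM. This places sham rat 5 lower than the CPM of the text does. Sham rats 2 and 3 are the reddest columns, sham rats 1 and 4 and TBI rat 4 are paler, and sham rat 5 is blue in most rows, as are TBI rats 1, 2, 3 and 5.

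The block was chosen by earlier results on the same tag counts, so the level of sham rat 5 in it is a description and not independent support. Sham rat 5 had no part in the profile or in the choice of pattern regions. In the 20 pattern regions of the interval, it was mostly with the low TBI rats and not with the other sham rats. Its level was below that of all 4 other sham rats in 19 of the 20 regions. It was at or below the highest TBI rat in 18 of the 20. Its median rank was 2 of 10 from the lowest, compared with 3 to 3.5 in TBI rats 1, 2, 3 and 5, 6 in TBI rat 4 and 7 to 10 in the other sham rats. It had no tag in 3 of the 20 pattern regions (15%), although it lacked tags in 0.676% of the 740 regions of the block outside the interval. Sham rat 5 was above all TBI rats at 2 of the 20 regions. At chr17:72496981-72499425 it had 14 CPM and ranked 8 of 10 from the lowest, and at chr17:72486433-72487205 it had 1.15 CPM, compared with 1.09 CPM in the highest TBI rat.

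The same division is seen in the summed tags of the 20 regions. Sham rats 2 and 3 had 100.1 and 112.1 CPM. Sham rats 1 and 4 had 70.4 and 70.1 CPM, and TBI rat 4 had 57.4 CPM. The remaining 5 rats fell within a narrow range, with 39.7, 39.1, 37.6 and 37.4 CPM in TBI rats 1, 2, 3 and 5 and 37 CPM in sham rat 5. In the 740 regions outside the interval, the sums were 742 to 796 CPM in the other 9 rats and 981 CPM in sham rat 5. These sums take in regions below the filter, whereas CPM is scaled by the tags of regions that passed it. In sham rat 5 those were 14154245 of 18584214 tags, a smaller share than in each other rat, which raises its sum relative to theirs. The 740 regions were weaker (median of 88 tags, compared with 226.5 in the pattern regions), so the sums are not matched for tag number. At single regions outside the interval, sham rat 5 was the lowest rat at chr17:71214880-71216953 (8.14 CPM) and the highest at chr17:72039603-72042523 (9.7 CPM). Whether its low level is particular to the interval was not tested.

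The size of the difference between rats was not the same at every region of the interval. At chr17:72209068-72210463, the first region of the interval, CPM values were 2.95, 8.95, 8.08, 3.62 and 0.339 in sham rats 1 to 5 and 0.631, 0.577, 0.555, 2.18 and 0.518 in TBI rats 1 to 5. Sham rats 2 and 3 were far above all others, and sham rat 5 was the lowest of the 10. At chr17:72385615-72386058, values were 1.96, 3.78, 4.49, 1.87 and 0.339 in sham rats and 0.236, 0.217, 0.303, 1.2 and 0.104 in TBI rats. The groups of rats were the same as at the first region, although this one begins 176.5 kb further along. At chr17:72474674-72475232, the raw tags were 15, 28, 62, 21 and 0 in sham rats and 0, 0, 2, 14 and 0 in TBI rats. Here 4 rats had no tag, which allows for up to 3 tags in each by counting error alone, while 5 rats had 14 tags or more.

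At stronger regions of the interval the same rats were lower, but none was near 0. At chr17:72429505-72431775, among the 3 most abundant regions of the block, CPM values were 22.2, 18.8, 29, 21 and 10.8 in sham rats and 14, 14, 13.2, 19 and 12.9 in TBI rats. Sham rat 5 was the lowest, and TBI rat 4 exceeded sham rat 2. At chr17:72496981-72499425, values were 7.94, 19.6, 15.8, 7.85 and 14 in sham rats and 7.41, 5.99, 6.81, 9.23 and 6.57 in TBI rats. Sham rats 1 and 4 were within the range of TBI rats there, below TBI rat 4 and above the other TBI rats. At chr17:72380170-72381168, values were 7.45, 10.7, 11.8, 10.8 and 3.12 in sham rats and 5.2, 6.35, 6, 4.87 and 5.85 in TBI rats. Here TBI rat 4 was the lowest TBI rat, so that its intermediate place did not hold at this region.

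**Figure D2:**
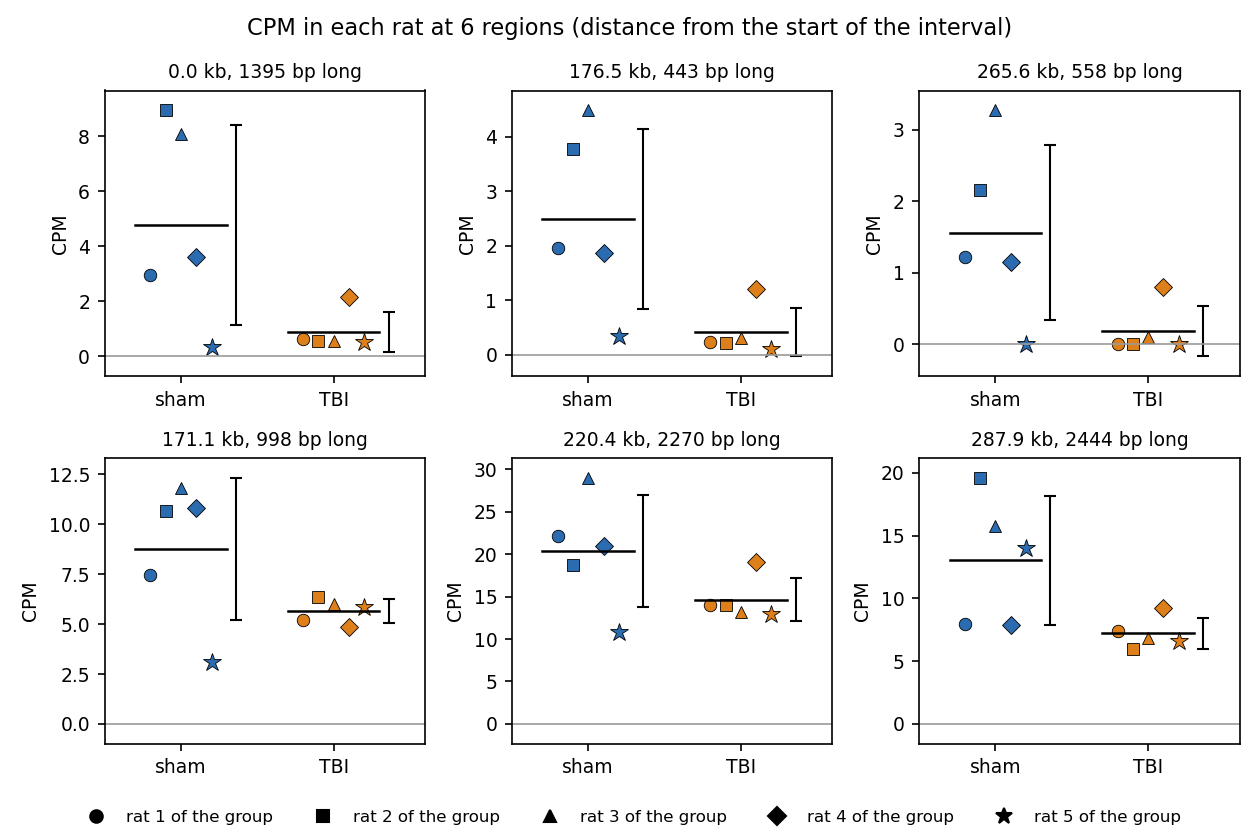
CPM (vertical axes) in each sham (blue) and TBI (orange) rat at the 4 regions of lowest p among those lower in TBI rats without sham rat 5 and at the 2 most abundant regions of the interval. Lines are group means and bars 1 SD (n = 5 in each group), and a grey line marks 0. Sham rat 5, the blue star, lies among or below the TBI rats in all panels but the last.

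Regions with few tags repeated the division in raw tags. In 2 regions of the block, chr17:72474674-72475232, which passed the filter on low tag sums, and chr17:72309370-72309784, which did not, at least 2 rats had 0 and at least 2 had 20 or more tags. The latter had 10, 21, 38, 10 and 2 tags in sham rats and 1, 0, 0, 10 and 1 tags in TBI rats. At chr17:72450685-72451228, chosen after its values were seen, there were 9, 14, 24, 9 and 0 tags in sham rats and 0, 0, 0, 6 and 0 tags in TBI rats. In both, TBI rat 4 was the only TBI rat above 1 tag. Summed over the 7 pattern regions of the interval that lay below the filter, there were 47, 99, 170, 62 and 9 tags in sham rats and 13, 15, 20, 58 and 24 tags in TBI rats.

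Not every region of the interval followed the pattern. The other 14 regions with enough tags had a median r of 0.524 with the profile, between -0.212 and 0.754, and a further 14 had too few tags to tell. The lowest r was that of chr17:72432044-72432580, which begins within 1 kb of the end of the strong region chr17:72429505-72431775. Its raw tags were 5, 15, 10, 3 and 42 in sham rats and 9, 10, 22, 12 and 12 in TBI rats, so that sham rat 5 was the highest rat there. A further 3 regions of the interval held at least 20 tags in sham rat 5 and over 2 times the tags of each other rat. One of them, chr17:72428116-72428780, held 29 tags in sham rat 5, 3 in sham rat 2, 2 in TBI rat 5, 1 in TBI rat 4 and 0 in the others. Regions with and without the pattern were thus interleaved. Neighbouring pattern regions were between 0.055 and 97.6 kb apart, with a median distance of 5.69 kb, and the widest stretch lay after the pattern regions at the start of the interval.

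The pattern faded on both sides. In bins of 100 kb with at least 3 regions, the mean r with the profile was 0.78 in the bin from 72300000 to 72400000 and 0.69 in the next. Over the 21075 bins of other chromosomes the highest was 0.626, the median 0.00821 and the 95th percentile 0.225. The first 2 bins hold regions that set the profile, and so does the bin after them, so this is a description of its place and not a test. On the upper side, the mean r was 0.22 in the following bin and 0.02 in the one after. On the lower side, the bin from 72200000 to 72300000 held too few regions, and the 2 bins before it had a mean r of 0.17 and, farther away, 0.06. Judged by the mean absolute r, with 1 bin without a value allowed, the run of bins above the 95th percentile of other chromosomes began at 72100000 and was 500.0 kb long. This measure also passed that percentile in 8 of the 28 bins of the block and in 8 of the 80 other bins of chromosome 17 with a value, so its ends are less sure than the peak. Leaving out sham rat 3 or sham rat 4 as well as sham rat 5 shortened the reach to 200.0 kb in each case.

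**Figure D3:**
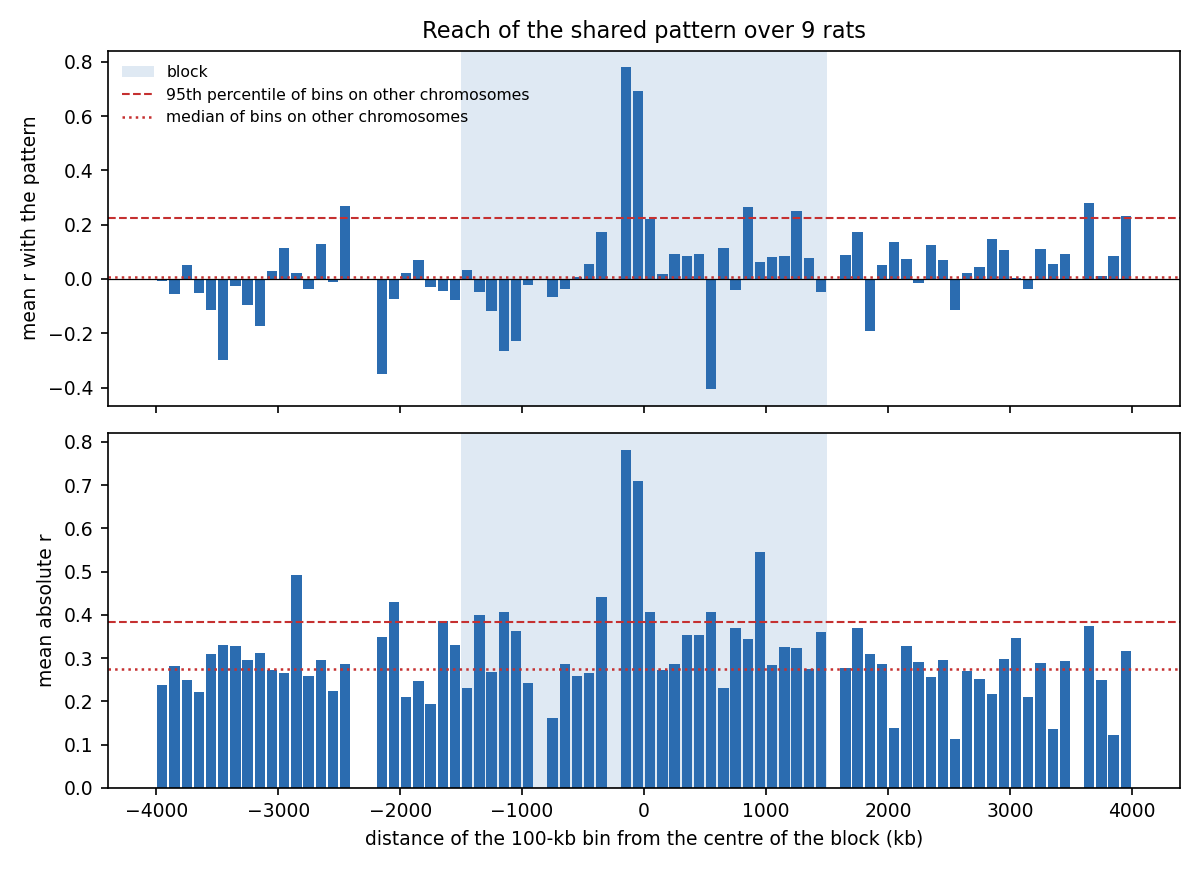
Mean r (upper) and mean absolute r (lower) of regions with the 9-rat profile in bins of 100 kb along chromosome 17, by distance in kb from the centre of the block (shaded). The 2 bins just below the centre stand at 0.78 and 0.69, above the dashed 95th percentile of bins on other chromosomes (0.225 for the mean r).

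Outside the interval, pattern regions were few and scattered. There were 2 shortly before its start, chr17:72127143-72127661 and chr17:72144101-72144976, and 1 farther away on each side, chr17:71826806-71827651 and chr17:73854946-73855523, all 4 named after their values were seen. At chr17:73854946-73855523 the values were close to each other, between 0.88 and 1.31 CPM in 9 rats and 0.475 CPM in sham rat 5. A further 6 regions had the opposite profile (r of -0.8 or less), 1.25% of the 480 regions, compared with 0.425% over the whole matrix. None of these 6 lay in the interval. A second, smaller likeness joined chr17:72640314-72640972 and chr17:73906318-73906954, the other 2 of the 14 most variable regions. Both were lowest in sham rat 2 and TBI rat 1, with 0.695 and 0.709 CPM at the former and 0.386 and 0.552 CPM at the latter. The other rats had between 1.22 and 2.58 CPM at the former. These 2 regions had r of 0.03 and -0.02 with the profile of the interval.

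Regions of the block that were not pattern regions shared little variation with their neighbours. For pairs of such regions within 10 kb the mean r over the 9 rats was 0.012 (459 pairs), compared with 0.000453 between regions of the block and of other chromosomes (20000 pairs). Regions of the block are not independent of each other, and all pairs share the same 9 libraries. When group means were removed and all 10 rats were kept, 5 of the 333 tested regions of the block were among the 1% with the highest spread for their abundance. Of these, 4 formed a cluster (chr17:72209068-72210463 to chr17:72423693-72424414), with a mean absolute r of 0.865 over the 3 pairs within 100 kb. This was under the 5 regions set as the least for a cluster with a span, so the span and reach given above are those of the 9 rats. Without sham rat 5, the largest cluster with group means removed held 2 regions and 0 pairs lay within 100 kb, so the cluster of 4 depended on that rat. The other of the 5, chr17:72093121-72094303, did not follow the profile (r = 0.02) and was highest in sham rat 5, with 3.73 CPM.

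Sham and TBI rats were compared over all regions of the matrix with edgeR's quasi-likelihood test. With all 10 rats, 8 of 333 regions of the block had an unadjusted p under 0.01, or 2.4%, compared with 0.266% of the 358249 regions tested. Of the 8, 7 were lower in TBI rats (0.168% over all regions) and 1 was higher (0.098%). All 7 lower regions lay in the interval, where 21 of 22 tested regions had a fold change below 0 and the median log2 fold change was -0.72. The median was -0.07 over the block, -0.05 over the block outside the interval and -0.02 over all regions. With all rats, 0 regions of the block and of the matrix passed an adjusted p of 0.05 by edgeR's quasi-likelihood test, and 22 in the block and 8764 in the matrix had an unadjusted p under 0.05. By edgeR's exact and likelihood ratio tests 4 regions of the matrix passed the adjustment and by DESeq2's Wald test 0, and none of them was in the block.

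Without sham rat 5, 21 of 329 regions of the block had an unadjusted p under 0.01, or 6.38%, compared with 0.792% of the 358615 regions tested. Of the 21, 18 were lower in TBI rats (0.396% over all regions) and 3 were higher (0.397%). The interval held 14 of the 21, all lower, among its 21 tested regions, with a median log2 fold change of -0.85. It was set by regions of high spread over these same 9 rats, whose profile was higher in sham than in TBI rats. Its count and median are therefore in part set by that choice and are not a test. In the rest of the block 7 of 308 regions passed, 4 lower and 3 higher. The median log2 fold change was -0.03 over the block, -0.0048 outside the interval and -0.0027 over all regions. CPM values of the groups did not overlap, with TBI rats lower, in 13 regions of the block (3.95%, compared with 0.741% over all regions). Sham rat 5 was low in the pattern regions, and these had been selected on the 9 other rats within a block chosen on the same tag counts.

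In edgeR's quasi-likelihood test without sham rat 5, 14 regions of the whole matrix had an adjusted p under 0.05 (0.0039%), and 7 of them were in the block. All 7 were in the interval, which was set on the same rats, and were lower in TBI rats. The other 7 were on 5 other chromosomes. The 7 regions of the block passed together but do not count as separate observations, because they share the profile of the same rats. With a further rat left out, the number ranged from 1 to 10. It was 1 without sham rat 3, 4 without sham rat 1 or TBI rat 2, and 2 without TBI rat 1, 3 or 5. It was 7 without TBI rat 4, 9 without sham rat 2 and 10 without sham rat 4.

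**Figure D4:**
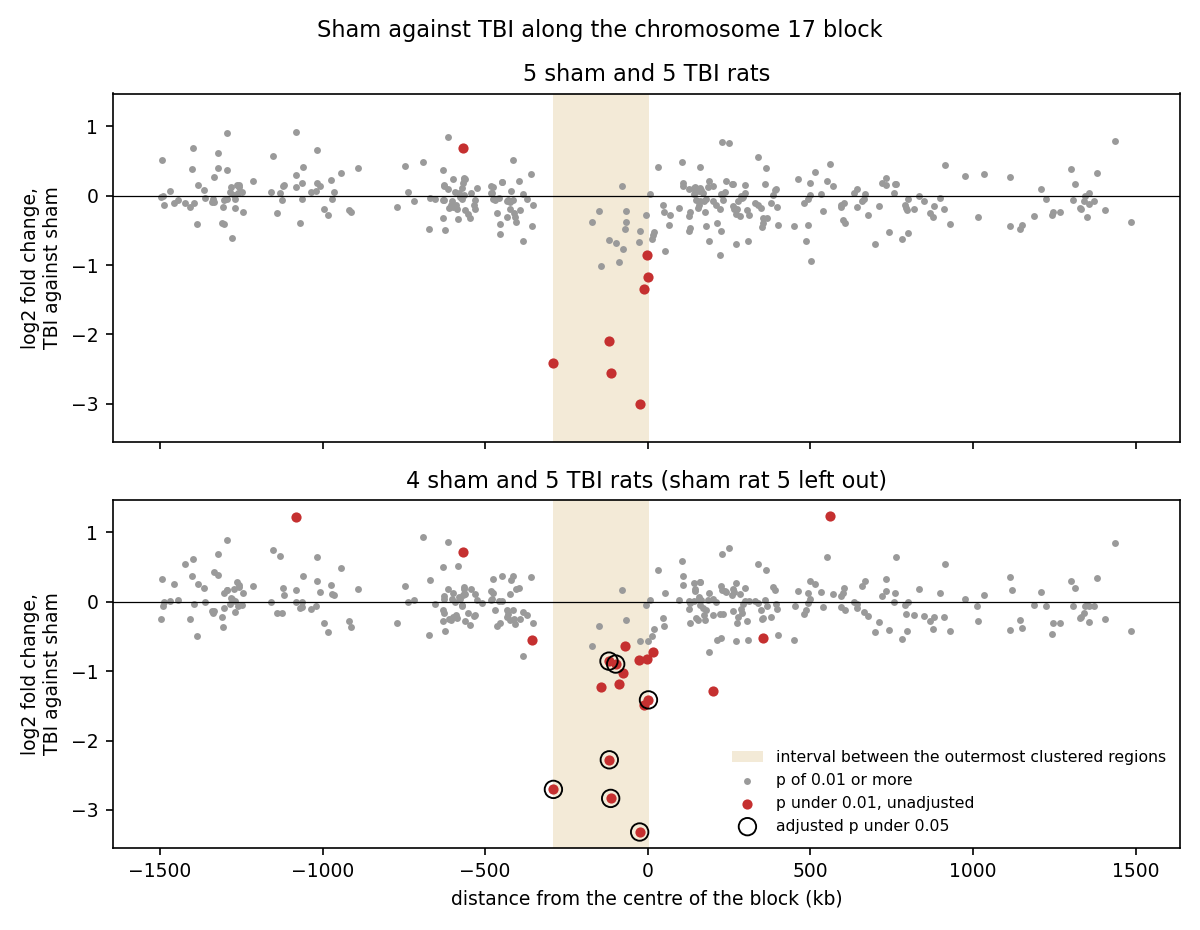
Log2 fold change of TBI against sham rats for each tested region, by distance in kb from the centre of the block, with all rats (upper) and without sham rat 5 (lower). The regions of lowest value lie in the shaded interval in both panels, where 7 regions with all rats and 14 without sham rat 5 have an unadjusted p under 0.01 (red), and 7 without sham rat 5 have an adjusted p under 0.05 (circled).

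The region chr17:72209068-72210463 had the smallest p of the block without sham rat 5. Mean CPM was 4.79 ± 3.63 in 5 sham rats, 5.9 ± 3.05 without sham rat 5, and 0.892 ± 0.72 in TBI rats (SD, n = 5, 4 and 5). The log2 fold change was -2.41 ± 0.54 (SE) with all rats and -2.70 ± 0.31 without sham rat 5, where the adjusted p was 3.39e-05 in edgeR's quasi-likelihood test. The SE of each fold change was derived from the F statistic of that test and was not estimated separately. All 4 remaining sham rats were above all TBI rats, and the highest TBI rat, TBI rat 4, was closest to sham rat 1.

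At chr17:72385615-72386058, sham rats had a mean of 2.49 ± 1.65 CPM and TBI rats of 0.413 ± 0.448 CPM (SD, n = 5 in each). The log2 fold change, -2.55 ± 0.56 with all rats, was -2.83 ± 0.38 without sham rat 5, where edgeR's quasi-likelihood test gave an adjusted p of 0.000671. At chr17:72474674-72475232, the log2 fold changes were -3.00 ± 0.84 and -3.32 ± 0.54, with an adjusted p of 0.0191 in the latter edgeR fit. Because 3 of the TBI rats had no tag there, the fitted fold change rests on few tags and is not a bound. Without sham rat 5 it was -5.70 with TBI rat 4 left out as well, and -2.96 to -3.13 with another TBI rat left out.

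The remaining 4 of the 7 regions had smaller or similar differences. At chr17:72381223-72382089, CPM values were 1.23, 3.16, 2.9, 1.15 and 0.814 in sham rats and 0.158, 0.217, 0.353, 1.15 and 0.207 in TBI rats. TBI rat 4 reached the level of sham rat 4, and the log2 fold change without sham rat 5 was -2.28 ± 0.40 (adjusted p = 0.0428 in edgeR). At chr17:72501621-72502421, values were 3.52, 2.86, 3.22, 3.02 and 0.746 in sham rats and 1.02, 1.44, 0.706, 1.78 and 0.984 in TBI rats. The 4 other sham rats were close to each other there and sham rat 5 was among the TBI rats, with a log2 fold change of -1.18 ± 0.33 with all rats and -1.41 ± 0.24 without sham rat 5 (adjusted p = 0.0217 in edgeR). Sham rat 5 was the lowest rat at the strong region chr17:72380170-72381168. Its log2 fold change was -0.64 ± 0.24 with all rats (unadjusted p = 0.0155 in edgeR) and -0.85 ± 0.14 without sham rat 5 (adjusted p = 0.0217). At chr17:72400725-72401786, named after its values were seen, sham rat 5 was again the lowest rat (2.58 CPM), and the log2 fold change was -0.90 ± 0.16 without it (adjusted p = 0.0357 in edgeR).

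Other regions of the interval had a p under 0.01 without passing the adjustment. At chr17:72486433-72487205, CPM values were 2.13, 2.55, 2.85, 1.43 and 1.15 in sham rats and 0.867, 0.938, 0.505, 1.09 and 0.621 in TBI rats. Of the tested regions of the interval, it was the only one where all 5 sham rats, sham rat 5 included, were above all TBI rats. Its log2 fold change was -1.34 ± 0.31 with all rats (unadjusted p = 0.000318 in edgeR) and -1.49 ± 0.28 without sham rat 5 (adjusted p = 0.128). The most abundant region, chr17:72429505-72431775, had a log2 fold change of -0.48 ± 0.20 with all rats (unadjusted p = 0.0273 in edgeR) and -0.64 ± 0.14 without sham rat 5 (unadjusted p = 3.42e-05). At chr17:72496981-72499425 it was -0.85 ± 0.22 and -0.82 ± 0.19, so that sham rat 5 made little difference where it was not low. At chr17:72411694-72412133, among the 8 regions of highest spread within groups, the value without sham rat 5 was -1.18 ± 0.40 (unadjusted p = 0.00509 in edgeR). That call was lost when sham rat 2 or 3 or TBI rat 1 or 3 was left out as well (unadjusted p = 0.0169, 0.0942, 0.0175 and 0.0108 in edgeR).

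With no filter beyond 1 tag, 766 regions of the block were tested without sham rat 5. There, edgeR's quasi-likelihood test gave an unadjusted p under 0.01 for 29 regions lower in TBI rats (3.79%, compared with 0.417% of 703286 regions), and 14 had an adjusted p under 0.05 (0.00853% over all regions, 60 in number). All 14 were lower in TBI rats, and 4 of them lay below the filter used otherwise. Among these, chr17:72309370-72309784 had a log2 fold change of -3.08 (adjusted p = 0.000113 in edgeR) and chr17:72450685-72451228 of -3.53 (adjusted p = 0.00151). The TBI rats hold many values at 0 or 1 tag in these regions, so the fitted values rest on few tags.

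Regions higher in TBI rats lay outside the interval and did not form a series. At chr17:71930134-71930919, CPM values were 1.88, 1.16, 1.69, 2.25 and 1.97 in sham rats and 2.68, 3.32, 2.37, 2.87 and 3.26 in TBI rats, with no overlap. The log2 fold change was 0.68 ± 0.20 with all rats (unadjusted p = 0.00335 in edgeR) and 0.71 ± 0.21 without sham rat 5 (adjusted p = 0.996). With all rats it passed 0.01 by little, and without sham rat 2, TBI rat 2 or TBI rat 5 the unadjusted p was 0.0103, 0.0102 and 0.011 in edgeR. At chr17:71418604-71419301, sham rat 5 was the highest sham rat (0.949 CPM) and the others had 0.309 to 0.655 CPM, compared with 0.745 to 1.55 CPM in TBI rats. The log2 fold change was 0.92 ± 0.38 with all rats (unadjusted p = 0.0246 in edgeR) and 1.22 ± 0.39 without sham rat 5 (unadjusted p = 0.00308), and the unadjusted p was 0.0129 with sham rat 4 left out as well. At chr17:73058468-73059157, sham rat 5 had 1.9 CPM, above all other rats, the other sham rats 0.309 to 0.491 CPM and TBI rats 0.516 to 1.36 CPM. There the log2 fold change with all rats was 0.45 ± 0.46, and without sham rat 5 it was 1.24 ± 0.40 (unadjusted p = 0.0034 in edgeR), so the direction was the same and the call depended on sham rat 5. With sham rat 4 left out as well, the unadjusted p was 0.0123 in edgeR. At chr17:71884677-71885171 and chr17:72726404-72726876, values with all rats were 0.84 ± 0.33 and 0.77 ± 0.30, with unadjusted p-values of 0.018 and 0.0176 in edgeR, neither under 0.01, although CPM values did not overlap at the former (0.463 to 0.739 in sham and 0.794 to 1.78 in TBI rats).

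The longest and most abundant regions outside the interval differed little between rats. At chr17:72039603-72042523, the longest region of the block, sham rats had 8.53 ± 0.973 CPM and TBI rats 8.38 ± 0.877 CPM (SD, n = 5 in each). At chr17:72015490-72017974, it was 6.28 ± 1.04 and 6.93 ± 0.779, and at chr17:71214880-71216953, it was 10.7 ± 1.51 and 11.1 ± 1. Their log2 fold changes with all rats were -0.03 ± 0.14, 0.14 ± 0.15 and 0.05 ± 0.14, less than the standard error in each case. Sham rat 5 was the highest at the first (9.7 CPM, with 9.62 CPM in the next rat), within the others at the second and the lowest at the last (8.14 CPM).

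The regions of highest spread within groups outside the interval had other profiles. At chr17:71075606-71076745, chr17:72551719-72553044 and chr17:72045317-72046015, sham rat 5 was the highest rat, with 2.71, 3.8 and 1.83 CPM. The other rats ranged from 0.264 to 1.66 CPM at the first, from 0.303 to 1.47 CPM at the second and from 0 to 1.62 CPM at the last. Without sham rat 5 the log2 fold change was 0.54 ± 0.41 at the first (-0.11 ± 0.48 with it) and 0.12 ± 0.43 at the second (-0.80 ± 0.56 with it), so that the direction turned at both, and neither had a p under 0.05.

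In length, pattern regions were near the rest of the matrix. Their median length was 582 bp, compared with 520 bp in the block outside the interval and 573 bp over the matrix. The median tag sum over 10 rats was 226.5 in the 20 pattern regions of the interval, 54 in its 28 other regions, 88 in the block outside the interval and 117 over the matrix. Regions were sparser in the interval, at 164 per Mb, compared with 263 per Mb over the block. The low-tag requirement for r keeps weak regions out of the pattern regions, so the higher tag sum is in part set by the choice.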

How the data were processed

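Methylated hippocampal DNA of each rat was captured and read as short single reads. The authors aligned reads to RN4 with BWA, called regions with MACS between pairs of samples, merged them with BEDTools, removed duplicates and deposited raw tag counts per region with no scaling for depth. Regions entered the matrix where 2 libraries differed, so a library unlike the others adds regions. Whether positions count from 0 or 1 is not stated. The study's methods name 4 control rats for methylation, whereas 5 sham libraries were analysed here.

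Samples were grouped by the treatment label, and all 10 columns were used (0 unmapped). The limits of the block, the members and the lists were chosen with earlier results of these data known. Regions were kept at or above the 50th percentile of the tag sum, which is the study's filter. Counts were tested across all regions with edgeR 4.0.16 in R 4.3.3 (TMM, trended dispersion, quasi-likelihood), and p-values were adjusted by Benjamini-Hochberg. Each p measures the spread between rats with 1 library each, and each count carries its own counting error. CPM is scaled by the tags of regions that passed the filter and by TMM, and log2 CPM uses a prior count of 2. Variable regions were the 1% of highest SD for their abundance, clustered on 1 minus r at a tree height of 0.5 (at least 5 regions) with Python 3.11.15, numpy 2.4.6 and scipy 1.17.1. For regions that set the profile, r used the profile of the others. The text names the 4 regions of smallest p per direction and fit, the 8 of highest SD within groups, the 3 most abundant and 3 longest, those with rats at 0 and at 20 or more tags, cluster ends and the ends of the block. Scripts were tested on simulated data. The profile of 9 rats without removal of group means, its limits (50 tags, r of 0.8) and its alternatives were chosen after seeing the data. DESeq2 1.42.0 was an alternative.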

Additional observations from a re-analysis of the deposited data

Results flagged for a closer look

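CPM values of 28 named regions were examined within each group of 5 rats, 56 groups in all. For each, the gap between the highest or lowest rat and the nearest other was divided by the range of the group. In 9 groups it was above Dixon's critical value at the 95% level, which chance passes in about 1 of 20 groups not chosen by their values. Regions were named here in part for their spread or small p in the same counts, so that rate does not apply to them. TBI rat 4 was the highest TBI rat in 6 of the 9, all in the interval. It had 2.18 CPM at chr17:72209068-72210463, 0.573 CPM at chr17:72309370-72309784 and 1.15 CPM at chr17:72381223-72382089. It had 1.2 CPM at chr17:72385615-72386058, 19 CPM at chr17:72429505-72431775 and 0.803 CPM at chr17:72474674-72475232. These regions share their profile and are not separate observations.

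TBI rat 3 was the highest TBI rat at chr17:72432044-72432580, with 1.11 CPM. Sham rat 5 was the lowest sham rat at chr17:72501621-72502421, with 0.746 CPM, and the highest at chr17:73058468-73059157, with 1.9 CPM.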

How the results depend on the processing

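No paired analysis was possible because sham and TBI rats carry different numbers. Calls rest on 1 library per rat, and regions under the filter hold few tags. Regions at p under 0.01 with all rats numbered 8, and 19 with no filter, 22 at p under 0.05 and 5 at p under 0.001, and 7 to 11 when a rat was left out. Without sham rat 5 they numbered 21, and 33 with no filter, 11 with at least 10 tags in every rat, 37 at p under 0.05 and 12 at p under 0.001, and 15 to 25 when a further rat was left out. Regions with an adjusted p numbered 0 with all rats, and 0 to 7 when a rat was left out, the 7 being without sham rat 5. Without sham rat 5 there were 7, and 14 with no filter, 3 with at least 10 tags, 3 by DESeq2's Wald test and 1 to 10 when a further rat was left out. Variable regions numbered 5, and 9 with the highest 2%, 9 with group means kept, 14 with group means kept and sham rat 5 left out, and 3 to 7 when a rat was left out, the 3 being without sham rat 2. Span ranged from 215.3 to 293.4 kb and reach from 200.0 to 500.0 kb when a rat was left out and a cluster of 5 was still found. These ranges pool the setting of all 10 rats with group means removed and that without sham rat 5 with group means kept. The cluster of all 10 rats with group means removed held 4 regions (of 5 needed) and gave neither. In that setting, leaving out sham rat 2, 3 or 5 or TBI rat 3 or 4 left clusters of 2 to 4 regions and again gave neither. The tree divided at 0.3 and bins of 250 kb gave no value for the same reason, and with at least 10 tags in every rat the cluster held 3 regions. A prior count of 0.5 gave a cluster of 5 regions and the highest 2% gave one of 6. Both had a span of 266.2 kb and a reach of 400 kb. Pattern regions numbered 24, 15 with r of 0.9 or more, and 16 to 29 when a rat was left out. Apart from the 3 regions by DESeq2's Wald test given above, other normalizations, tests, the prior count and rank correlation kept these counts within 1.5 times. The 34 fold changes examined (17 named regions of small p, in 2 fits) kept their direction in all alternatives run, and in 23 cases p moved across 0.01. Named regions of larger p were not among them, and at chr17:71075606-71076745 and chr17:72551719-72553044 the direction turned without sham rat 5. Other called regions were not rerun one by one. The causes were not tested.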
